A study of Mus musculus with 4 samples.

Results

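Genes of the p53 response, 10 in number, were followed across the count tables: Trp53, which encodes p53, and 9 genes of its circuit and of growth arrest, Cdkn1a, Mdm2, Btg2, Ccng1, Bax, Bbc3, Gadd45a, Zmat3 and Phlda3. They were chosen by symbol, and each matched 1 of the 23282 gene rows, so all 10 were found. The RNA came from explants of C57BL/6 mouse dorsal root ganglia (sensory ganglia that hold neuron bodies and their glia) taken at embryonic day 13, grown on Matrigel and moved to myelination medium at day in vitro (DIV) 8. Stimulated cultures (ES) received an electrical field of 50 mV/mm at 20 Hz for 1 h at 10 DIV, control cultures received none, and RNA was taken at 11 or 19 DIV. The 4 groups, a control and an ES group for each day, had 1 library each, made from 3 pooled explants with a kit that reads a tag at the 3' end of transcripts. The differences are between single libraries, without a replicate check, and carry no p-value. In pooled explants, fewer cells of a type and less RNA per cell cannot be told apart.

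The p53 protein is a transcription factor that is held at a low level by Mdm2, a ubiquitin ligase that marks it for degradation and whose gene p53 itself switches on. DNA damage and other stresses free p53 from Mdm2. Free p53 raises genes that stop the cell cycle (Cdkn1a, Btg2, Gadd45a), genes that lead to cell death (Bax, Bbc3) and genes that feed back on its own pathway (Mdm2, Ccng1, Zmat3, Phlda3). p53 is controlled largely at the protein level, so its mRNA is not a measure of its activity. In cultured ganglia, dividing glia and fibroblasts can respond with arrest, and neurons with cell death.

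Promoter windows of RefSeq (GRCm38.p6, 250 bases before to 50 bases after a gene's start) were matched for 9 of the 10 genes, in 12 windows. Zmat3 had no entry. They were searched for the p53 decamer consensus, the 10-base unit of which a p53 response element holds a pair. It reads the same on both strands, so 1 scan covered both. A perfect decamer was in a window of 6 of the 9 genes (Trp53, Cdkn1a, Mdm2, Ccng1, Bax and Gadd45a), against 9.55% of the 27025 genes in the table. A pair of decamers with at most 2 mismatches in all and at most 13 bases between them was in a window of 4 of the 9 (Cdkn1a, Ccng1, Bax and Gadd45a), against 4.71% of all genes. The pairs of Cdkn1a and Ccng1 each had 1 mismatch and no base between the decamers, and began 51 and 195 bases before the start. Those of Bax and Gadd45a had 2 mismatches, with 1 and 6 bases between them. The windows of Btg2, Bbc3 and Phlda3 held neither. That of Btg2 held the cAMP response element TGACGTCA, which 2.03% of genes had and none of the other 8 members did. The 9-letter core of the antioxidant response element, TGACNNNGC on either strand, was in a window of Trp53 and in the second window of Cdkn1a, and in 14% of all genes. These genes were picked as p53 targets, and a match is a description of the letters, not a site shown to be bound. Bases outside the windows were not searched, so a gene without a match here may hold one elsewhere. The windows of the 3 genes with the closest-spaced pairs are shown with that of Btg2, the gene that differed most between libraries. Each is printed 5' to 3' on the gene's strand, and that of Cdkn1a belongs to its upstream start. Capitals mark the decamers and, in Btg2, the cAMP response element.
Cdkn1a chr17:29090729-29091028 (plus strand): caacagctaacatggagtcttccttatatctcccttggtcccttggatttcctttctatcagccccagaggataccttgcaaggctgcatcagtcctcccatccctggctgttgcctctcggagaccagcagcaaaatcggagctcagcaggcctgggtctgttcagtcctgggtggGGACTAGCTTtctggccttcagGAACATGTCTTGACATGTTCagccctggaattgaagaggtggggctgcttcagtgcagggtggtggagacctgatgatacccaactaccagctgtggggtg
Ccng1 chr11:40755237-40755536 (minus strand): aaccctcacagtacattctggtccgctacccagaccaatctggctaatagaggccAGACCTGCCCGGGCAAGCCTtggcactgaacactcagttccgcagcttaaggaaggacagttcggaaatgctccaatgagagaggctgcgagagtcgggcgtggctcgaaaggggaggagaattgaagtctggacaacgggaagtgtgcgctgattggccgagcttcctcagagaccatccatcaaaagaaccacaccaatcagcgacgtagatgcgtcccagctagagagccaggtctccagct
Bax chr7:45466849-45467148 (minus strand): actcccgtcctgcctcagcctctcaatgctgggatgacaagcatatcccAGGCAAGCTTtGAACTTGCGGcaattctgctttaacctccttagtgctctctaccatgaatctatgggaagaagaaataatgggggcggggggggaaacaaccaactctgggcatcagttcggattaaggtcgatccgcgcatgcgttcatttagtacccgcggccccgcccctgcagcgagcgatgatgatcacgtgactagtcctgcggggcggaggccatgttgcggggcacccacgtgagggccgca
Btg2 chr1:134079106-134079405 (minus strand): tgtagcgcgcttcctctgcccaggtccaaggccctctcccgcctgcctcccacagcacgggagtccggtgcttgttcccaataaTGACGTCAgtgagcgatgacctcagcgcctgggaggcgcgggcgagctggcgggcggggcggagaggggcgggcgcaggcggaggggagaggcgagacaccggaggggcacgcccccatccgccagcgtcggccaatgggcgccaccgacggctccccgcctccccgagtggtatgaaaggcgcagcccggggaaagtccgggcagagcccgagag

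Library totals ranged from 5782834 to 7830950 reads, and 9632 to 9996 rows had a read. Levels are given as CPM, read counts brought to a common library size, after TMM scaling, which sets libraries against each other by the genes they share. By counting error alone, a count of 0 allows up to 3 reads, or 0.376 to 0.518 CPM. Scatter between libraries far exceeded counting error. In genes averaging 500 to 3000 reads, the squared difference between 2 libraries was 209 to 259.8 times that of independent reads, depending on the pair. Intervals called spread-adjusted below are 95% intervals on counts divided by that factor. The factor holds any real differences between the groups as well as scatter, and single libraries cannot separate them. It was larger in genes above 3000 reads, so it need not hold at other read counts. Neuron markers (Tubb3, Prph, Stmn2 and 5 others) summed to 2632 and 3779 CPM in control and ES at 11 DIV and to 3436 and 1258 CPM at 19 DIV. Schwann and satellite glia markers summed to 4335, 7099, 10506 and 8655 CPM in the same order, and fibroblast markers to 4746, 6444, 9045 and 12429 CPM. Of 6 macrophage and 6 endothelial markers, 2 to 3 and 0 to 2 had a read. Rn45s, the ribosomal RNA precursor, took 5.18% of reads in control at 11 DIV and 2.65% to 3.08% in the other libraries. The part of these shifts in the results below was not tested.

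A tag count does not grow with transcript length, so the CPM of different genes can be ordered. Cdkn1a was the most abundant of the 10 by mean level, at the 99th percentile of genes with at least 50 reads in a library, followed by Mdm2 (95.7th) and Ccng1 (92.4th). Zmat3, Bax, Phlda3, Gadd45a, Trp53, Btg2 and Bbc3 followed, down to the 53.5th percentile. Together the 10 genes had 3076 CPM in control and 1853 CPM in ES at 11 DIV, and 1223 CPM in control and 1945 CPM in ES at 19 DIV. Cdkn1a made up 52.8% of the members' reads in control at 11 DIV and 26.2% to 39.8% in the other libraries. Of the 10, 5 had their highest level in control at 11 DIV, and 7 their lowest in control at 19 DIV. Only Btg2 had libraries without a read, ES at 11 DIV and control at 19 DIV. None of the 10 had a row with counts within 5% of its own in every library, and no other annotated gene lay over the last 1000 bases of any of them. Further from the 3' end, an annotated gene overlapped Cdkn1a and Gadd45a on the other strand and Bax on the same strand. That over Gadd45a, E230016M11Rik, had 190 reads in control at 11 DIV and 0 in the other libraries.

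**Figure D1:**
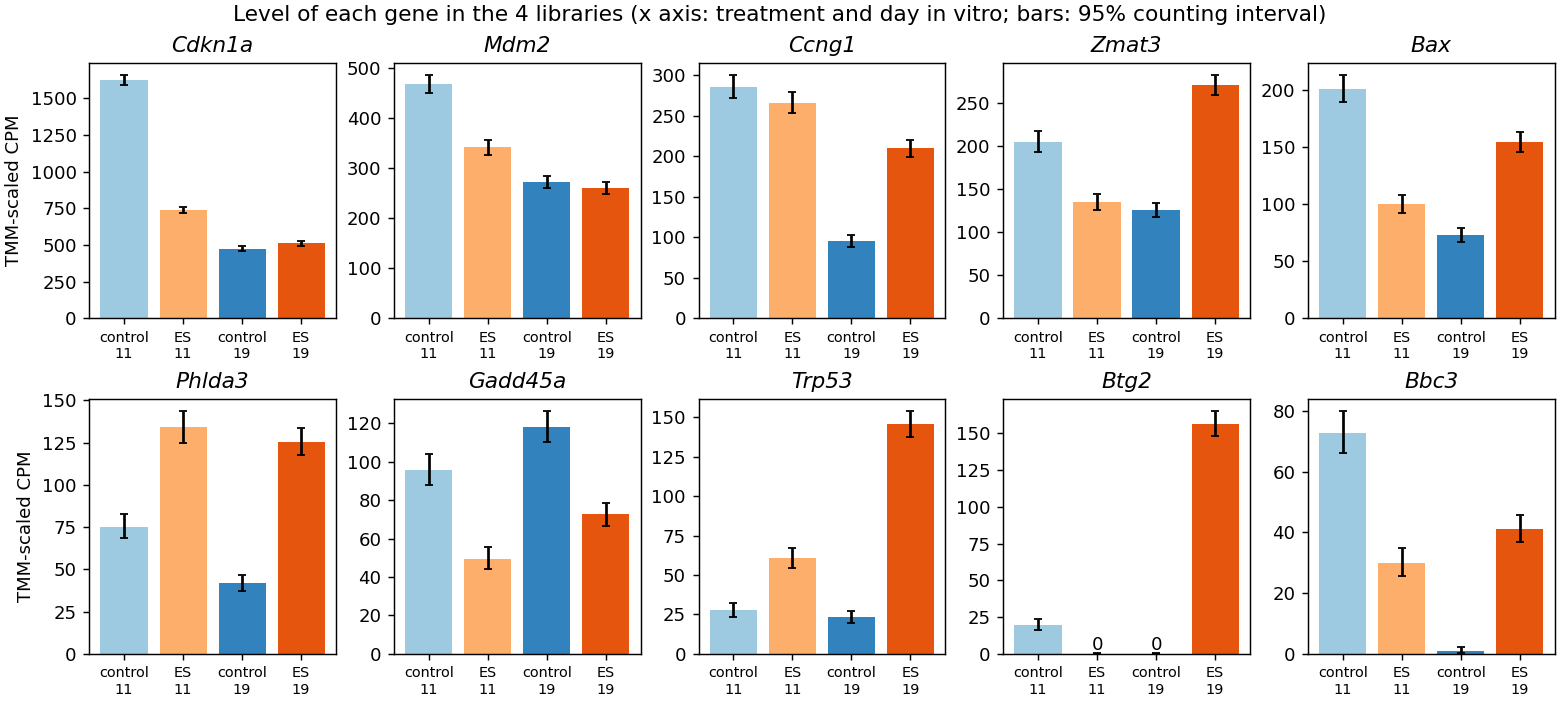
TMM-scaled CPM (y axes, linear, each panel with its own range) of the 10 genes in the 4 libraries (x axes: control or ES, at 11 or 19 DIV), ordered by mean level. Error bars are exact Poisson 95% intervals on the count and cover counting error only. Cdkn1a stands at 1626 CPM in control at 11 DIV and at 474 CPM in control at 19 DIV, and Btg2 has 0 reads in 2 libraries.

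Set against its control 1 day after stimulation, the ES library at 11 DIV had less Cdkn1a, which encodes p21, the cyclin-dependent kinase inhibitor through which p53 halts the cycle. Cdkn1a (GRCm38 chromosome 17, 29090976 to 29100727; all 10 genes are protein-coding) was counted 4364 times in ES and 9417 times in control, which is 737 and 1626 CPM. The ES level was 0.453 times control, with a counting interval of 0.437 to 0.470 and a spread-adjusted interval of 0.256 to 0.777. A size rule was used to count genes: 2-fold or more, equality outside the counting interval, and 50 or more reads in one of the pair. By this rule 4 of the 10 genes were lower in ES (Cdkn1a, Btg2, Bbc3 and, though not with DESeq2 size factors or total counts, Bax), 1 was higher (Trp53) and 5 were neither. Of all 9834 genes with 50 reads it called 29.6% lower and 28.9% higher, so these counts are near the background. A spread-adjusted rule, which takes the divided counts and needs equality to lie outside their 99% interval, called Cdkn1a (0.214 to 0.906) and none of the other 9, against 0.315% of all genes. Among the 564 genes averaging 2000 reads or more, to which Cdkn1a belongs, it called 4.96%. The call did not hold with libraries scaled by total counts, or with the larger spread factor of 572 measured on genes above 3000 reads. Both counts of Cdkn1a were above 3000 reads, so it belongs to that class and lies outside the range of the main factor.

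The other arrest genes and cyclin G1 did not pass the spread-adjusted rule at 11 DIV. Btg2, an antiproliferative partner of the deadenylase that shortens mRNA tails (chromosome 1, 134075170 to 134079120), was read 114 times in control and 0 times in ES. With 0 put at 3 reads it was 38.9-fold lower in ES, which allows for counting error only. After division by the spread factor, 114 reads weigh as 0.546 counts, and the spread-adjusted interval reached 836-fold higher. Gadd45a, a stress protein that binds PCNA and slows the cycle (chromosome 6, 67035096 to 67037457), had 49.5 CPM in ES and 95.8 CPM in control, 0.516 times control (spread-adjusted 0.0225 to 5.96). Ccng1, the cyclin G1 that brings a phosphatase to Mdm2 (chromosome 11, 40748552 to 40755311), differed little, with 266 and 286 CPM, a ratio of 0.931 (0.297 to 2.89).

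The death genes and Mdm2 also had lower values in ES at 11 DIV. Bax, which opens pores in the mitochondrial outer membrane (chromosome 7, 45461697 to 45466898), had 99.6 CPM in ES and 201 CPM in control, a ratio of 0.496 (spread-adjusted 0.0744 to 2.46). Bbc3, the BH3-only protein PUMA that unleashes Bax (chromosome 7, 16308393 to 16318205), had 30.0 and 72.8 CPM, a ratio of 0.412 (0.00415 to 8.56). Mdm2 (chromosome 10, 117688875 to 117710758) had 342 and 468 CPM, a ratio of 0.730 (0.284 to 1.82). Zmat3, an RNA-binding zinc finger protein (chromosome 3, 32334792 to 32366014), had 135 and 205 CPM, a ratio of 0.657 (0.130 to 2.89). All of these intervals included equality.

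Of the 10, 2 had higher values in ES at 11 DIV, beside 49% of all genes. With libraries scaled by total counts Ccng1, at 1.02, was also higher. Trp53 (chromosome 11, 69580359 to 69591873) was read 360 times in ES and 160 times in control, 60.8 and 27.6 CPM. Its ratio was 2.20 with a spread-adjusted interval of 0.0793 to 347. Phlda3, a pleckstrin homology protein that competes with Akt for membrane lipids (chromosome 1, 135766119 to 135769136), had 134 and 75.3 CPM, a ratio of 1.78 (0.252 to 18.8). Both intervals included equality.

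At 19 DIV, 9 days after stimulation, the ES library had higher values than control for 8 of the 10 genes, beside 48.6% of all genes. By the size rule 7 were higher (Trp53, Btg2, Ccng1, Bax, Bbc3, Zmat3 and Phlda3), none was lower and 3 were neither, against 29.4% of all 10027 genes higher and 31.3% lower. The spread-adjusted rule called 0 of the 10, against 0.259% of all genes. Cdkn1a and Mdm2, the abundant members, were not among the 7. Cdkn1a had 510.2 CPM in ES and 474 CPM in control, a ratio of 1.08 (spread-adjusted 0.50 to 2.36). Mdm2 had 260.4 and 272 CPM, a ratio of 0.957 (0.324 to 2.87). Among genes averaging 2000 reads or more, like these, the size rule called 11.3% in this comparison, against 58.8% of genes with a mean of 200 to 500 reads.

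Trp53 itself was read 1162 times in ES and 160 times in control at 19 DIV (146 and 23.2 CPM), a ratio of 6.27 (spread-adjusted 0.537 to 1331). After division by the spread factor its 160 control reads weigh as 0.678 counts, so that under this factor the denominator carried little information. Btg2 was read 1249 times (156 CPM) in ES and never in control, 359-fold higher with 0 put at 3 reads. The lower end of its spread-adjusted interval was 0.856. Bbc3 was read 328 times in ES and 7 times in control. Its ratio was 40.4, with counting bounds of 19.4 and 101 and a spread-adjusted lower end of 0.0635. The genes with the largest ratios were thus those with the fewest reads. Of the 2987 genes with a mean of 200 to 500 reads, 18.9% had 0 reads in 1 or more libraries and 1.87% in 2 or more, as Btg2 did.

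The other 4 genes past the size rule at 19 DIV had ratios between 2.12 and 3.0. Zmat3 had 270.4 CPM in ES and 125 CPM in control, a ratio of 2.16 (spread-adjusted 0.586 to 10.3). Ccng1 had 209.5 and 95 CPM, a ratio of 2.20 (0.490 to 14.3). In ES at 19 DIV, Zmat3 was above and Ccng1 below both of its 11 DIV values, while both genes had their lowest level in control at 19 DIV. Bax had 154 and 72.5 CPM, a ratio of 2.12 (0.365 to 20.4). Phlda3 had 125 and 41.8 CPM, a ratio of 3.0 (0.347 to 84.5). Gadd45a went the other way, with 72.5 CPM in ES and 118 CPM in control, a ratio of 0.614 (0.0696 to 4.38).

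**Figure D2:**
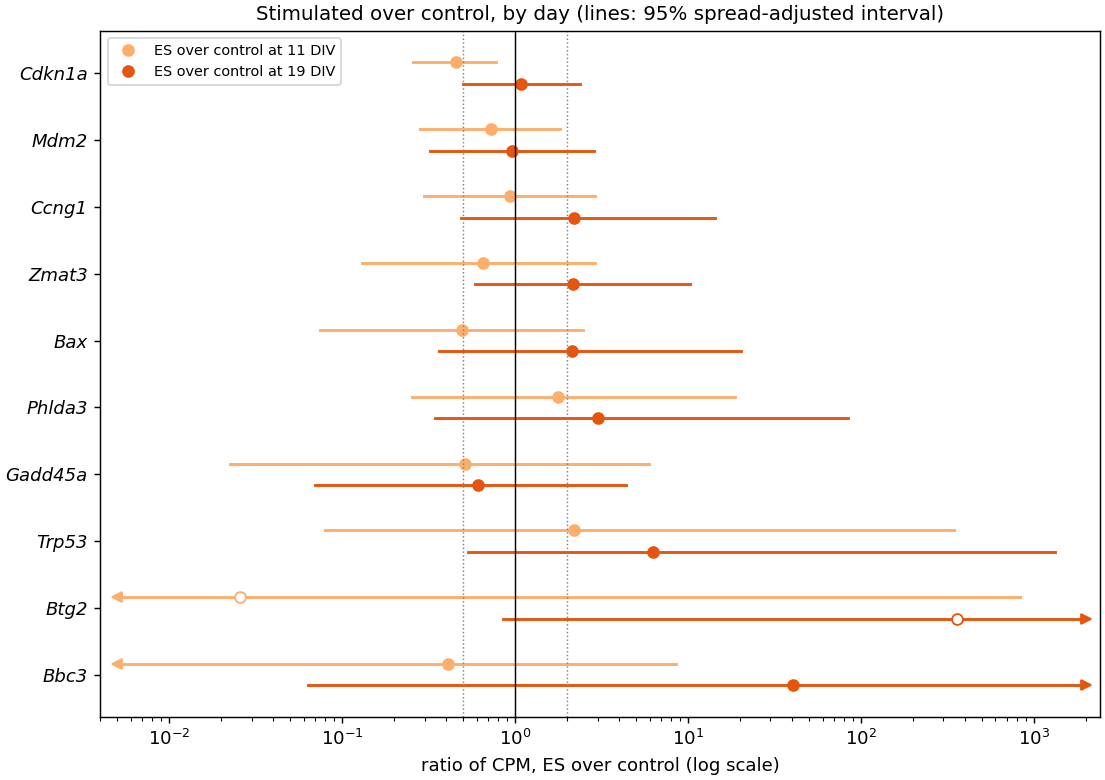
Ratio of CPM in ES over control (x axis, log scale) for each of the 10 genes (y axis), at 11 DIV (light) and 19 DIV (dark). Lines are 95% spread-adjusted intervals, arrowheads mark intervals that run past the axis, open circles put a count of 0 at 3 reads, and dotted lines mark 2-fold. The interval of Cdkn1a at 11 DIV is the only one that leaves out equality.

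Control cultures at 19 DIV were set against control cultures at 11 DIV, which differ in culture time and in the pool of explants; these 2 cannot be told apart. Of the 10 genes, 9 had lower values and 1 a higher value at 19 DIV, beside 50% of all genes higher. By the size rule 5 were lower (Cdkn1a, Btg2, Ccng1, Bax and Bbc3) and 0 higher, against 29.8% of all 10025 genes lower and 30.9% higher. The spread-adjusted rule called Cdkn1a and none of the other 9, against 0.608% of all genes and 9.57% of those averaging 2000 reads or more. Cdkn1a was at 0.292 times its 11 DIV level (spread-adjusted 0.147 to 0.546). This call did not hold with the spread factor of 1039 measured on genes above 3000 reads, the class to which Cdkn1a belongs in this pair too. This comparison shares the control library at 11 DIV, where Cdkn1a was highest, with that of ES and control at 11 DIV.

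Ccng1 was at 0.332 (spread-adjusted 0.0522 to 1.48), Bax at 0.361 (0.0382 to 2.13) and Mdm2 at 0.582 (0.206 to 1.56) times their 11 DIV control levels. Bbc3 had 7 reads at 19 DIV and 422 at 11 DIV, and Btg2 0 and 114. Trp53 had 160 reads in each library, a ratio of 0.840 after scaling (0.00223 to 316). Gadd45a was the 1 gene with a higher value at 19 DIV, at 1.23 times (0.173 to 11.2). All of these intervals included equality.

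Between days, the 2 ES libraries were compared in the same way. Cdkn1a was at 0.693 (spread-adjusted 0.325 to 1.47), Mdm2 at 0.762 (0.248 to 2.35) and Ccng1 at 0.788 (0.219 to 2.88) times their 11 DIV levels. By the size rule 3 genes were higher at 19 DIV (Trp53, Btg2 and, though not with upper-quartile scaling, Zmat3) and 0 lower, against 30.9% of all 9884 genes higher and 30.5% lower. Trp53 was at 2.39 (0.306 to 49.6) and Zmat3 at 2.01 (0.493 to 11.4) times. Btg2 had 1249 reads at 19 DIV and 0 at 11 DIV, 309-fold higher with 0 put at 3 reads. The lower end of its spread-adjusted interval was 0.643. The spread-adjusted rule called 0 of the 10, against 0.415% of all genes.

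**Figure D3:**
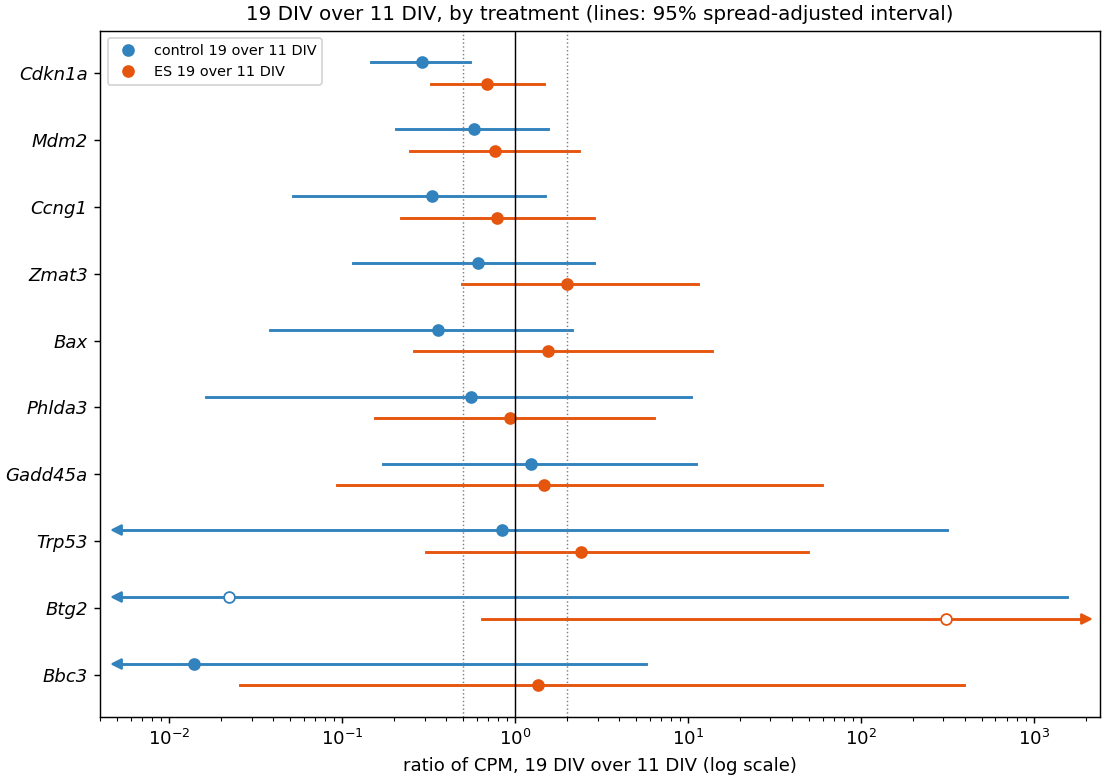
Ratio of CPM at 19 DIV over 11 DIV (x axis, log scale) for each of the 10 genes (y axis), in control (blue) and ES cultures (orange). Lines are 95% spread-adjusted intervals, arrowheads mark intervals that run past the axis, open circles put a count of 0 at 3 reads, and dotted lines mark 2-fold. Cdkn1a in control cultures, at 0.292, is the only gene whose interval leaves out equality.

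The 10 members were set beside all genes as a description, without a test of the list. Their median log2 difference between ES and control was -0.78 at 11 DIV, beside -0.05 over the 10574 genes averaging 10 reads or more, and 1.12 at 19 DIV, beside -0.06 over 10552. Between days it was -1.16 in control cultures, beside 0.00, and 0.50 in ES cultures, beside 0.00. Each comparison had all 10 members in the median, and putting Btg2's counts of 0 at 3 reads left these medians as they were. The middle 50% of all genes ran from -1.48 to 1.34 at 11 DIV and from -1.77 to 1.38 at 19 DIV, and 9 and 6 of the 10 members lay within it.

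**Figure D4:**
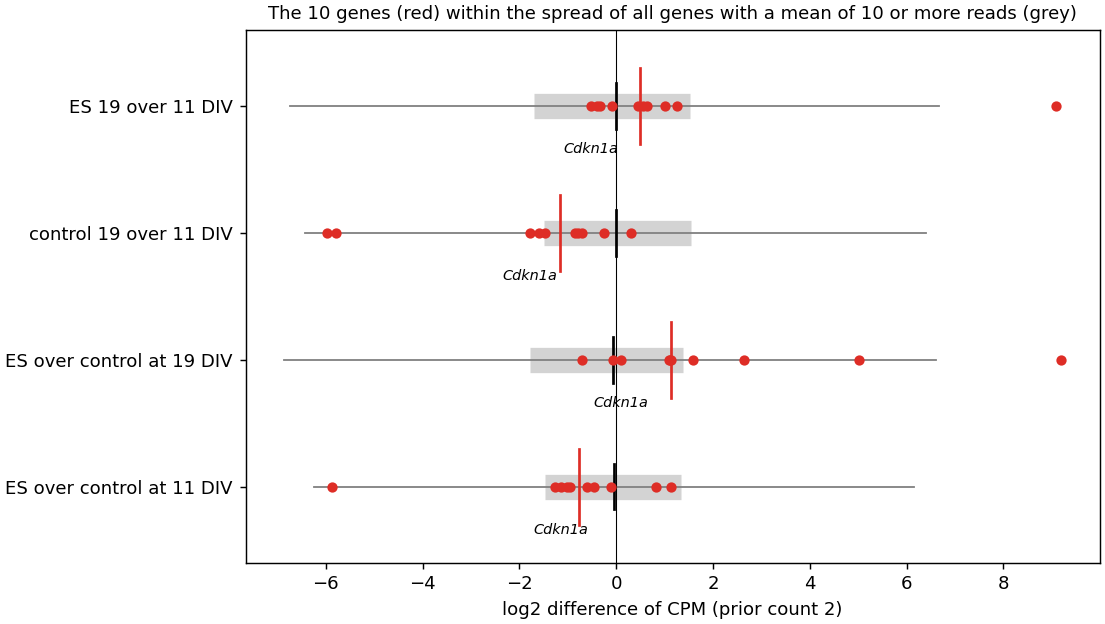
Log2 difference of CPM (x axis, prior count 2) in the 4 comparisons (y axis). Red points are the 10 genes and red lines their median, grey boxes and lines span the middle 50% and 90% of all genes averaging 10 reads or more, and black lines are the median of all genes. The red median lies at -0.78 for ES over control at 11 DIV and at 1.12 at 19 DIV.

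A model over all 4 libraries with stimulation and day as additive terms was the only fit with a residual degree of freedom, 1 in number, and it counts any difference of the stimulation effect between days as error. With edgeR's quasi-likelihood test and Benjamini-Hochberg adjustment over 10050 genes, 0 of the 10 members and 0% of all genes passed 0.05 for either term. At an unadjusted p under 0.05 the counts were 0 members and 109 genes for stimulation, and 1 member, Cdkn1a, and 202 genes for day. For Cdkn1a, edgeR gave a log2 difference between days of -1.16 (SE 0.47, adjusted p = 1), and the value was lower at 19 DIV in both treatments. For Trp53 it gave 1.89 between ES and control (SE 1.28, adjusted p = 1). limma with voom also called 0 members and 0 genes, with 0 and 1 members and 566 and 701 genes at an unadjusted p under 0.05 for stimulation and day. DESeq2, which calls 5.21% of all genes for stimulation and 8.59% for day here, called 0 and 1 members, the 1 being Cdkn1a for day (log2 difference -1.15, adjusted p = 0.0327). Its adjusted p for Trp53 and stimulation was 0.113.

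Likeness to Cdkn1a across the libraries was measured over all abundant genes. By distance between log2 CPM values centred over the 4 libraries, among 2963 genes averaging 500 reads or more, the 5 genes nearest to Cdkn1a were Txnrd1 (0.11 log2 units), Cd24a (0.12), Gstp1 (0.18), Snx10 (0.19) and Gstp2 (0.22). Txnrd1, one of the 10 oxidative stress genes described below, encodes thioredoxin reductase, Gstp1 and Gstp2 glutathione transferases, Cd24a a surface glycoprotein and Snx10 a sorting nexin. Txnrd1 had 363, 152, 96.9 and 104 CPM at 11 DIV (control, ES) and 19 DIV (control, ES), beside 1626, 737, 474 and 510.2 CPM of Cdkn1a. The nearest member was Mdm2, at 0.76 and rank 137, followed by Bax at 1.01 and rank 377 and Ccng1 at 1.05 and rank 425. Zmat3 (rank 1108), Gadd45a (rank 1345) and Phlda3 (rank 1654) lay further away. Trp53, Btg2 and Bbc3 averaged fewer than 500 reads and were not ranked. Gstp1 and Gstp2 are near-identical copies whose reads may be shared. With 4 points a gene, likeness is a description only.

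**Figure D5:**
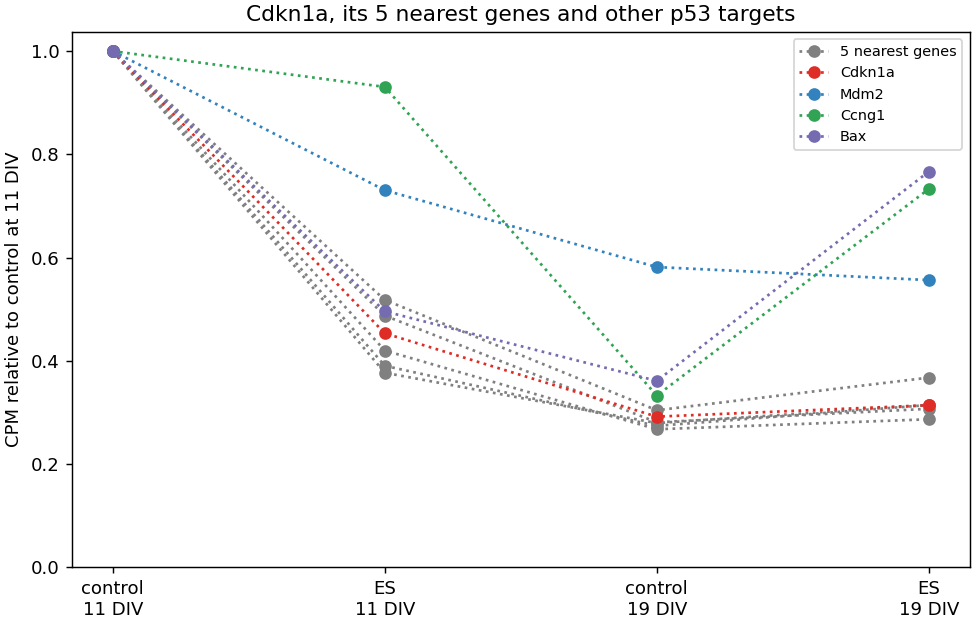
CPM relative to control at 11 DIV (y axis, linear) in the 4 libraries (x axis) for Cdkn1a (red), the 5 genes nearest to it (grey) and 3 other p53 targets. The 3 are Mdm2, Ccng1 and Bax, the nearest of the ranked members. Dotted lines join the values of 1 gene. Cdkn1a stands at 0.453 in ES at 11 DIV and 0.292 in control at 19 DIV, whereas Ccng1 and Bax are higher in ES at 19 DIV than in control at 19 DIV.

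Further lists of p53 control, p53 targets, growth arrest and the BCL2 family were counted, and the spread-adjusted rule called none of their genes in any of the 4 comparisons. The list of p53 control and DNA damage signalling (14 genes, 12 of them with enough reads) had, under the size rule, 3 higher, 5 lower and 4 neither in ES at 11 DIV (median log2 difference 0.21) and 4, 1 and 7 at 19 DIV (median 0.59). Its most abundant members were Mdm4, a relative of Mdm2 that masks p53, and Cdkn2a, whose products include the Mdm2 inhibitor ARF. Reads were counted per gene symbol, so those of Cdkn2a are not a measure of ARF alone. Mdm4 had 388 and 762 reads in control and ES at 11 DIV and 1207 and 1103 at 19 DIV. Cdkn2a had 605 and 193, then 572 and 1583, a ratio of ES over control of 0.312 (spread-adjusted 0.00460 to 4.19) at 11 DIV and 2.39 (0.489 to 18.3) at 19 DIV.

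The list named for further p53 targets in arrest and stress (12 genes) had 2 higher, 1 lower and 5 neither in ES at 11 DIV (median 0.50). At 19 DIV it had 2, 2 and 4 (median -0.30). Ddit4, an inhibitor of mTORC1 signalling, was at 1.40 (0.598 to 3.43) and 0.772 (0.349 to 1.69) times control. Trp53inp2, an autophagy protein, was at 1.43 (0.462 to 4.78) and 0.716 (0.167 to 2.91). Whether p53 controls Trp53inp2 was not tested. The values of Ddit4 and Trp53inp2 lay on the opposite side of equality from those of most of the 10 members at each day. Their intervals included equality. Further targets in cell death (11 genes) had 0, 3 and 4 at 11 DIV (median -0.83) and 2, 1 and 4 at 19 DIV (median -0.07), with Siva1 at 1.61 (0.235 to 14.9) and 0.556 (0.0936 to 2.75) and Ei24, a protein of the endoplasmic reticulum, at 0.462 (0.0562 to 2.58) and 1.24 (0.149 to 13.5).

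Targets in repair and metabolism (11 genes) had 0 higher, 3 lower and 3 neither in ES at 11 DIV, with a median of 0.32 over 7 genes, and 6, 2 and 1 at 19 DIV, with a median of 3.25 over 9. The 2 most abundant lay below that median: Rps27l, a ribosomal protein relative, was at 0.636 (0.170 to 2.21) and Ak1, an adenylate kinase, at 2.22 (0.513 to 13.5) times control at 19 DIV. Other growth arrest genes (16 symbols on 17 rows, Btg3 standing on a pair of rows) had 4, 7 and 6 at 11 DIV (median 0.06) and 4, 6 and 7 at 19 DIV (median 0.10). Cdkn1b, which encodes the kinase inhibitor p27, had 1026 and 1499 reads in control and ES at 11 DIV and 3508 and 1763 at 19 DIV, a ratio of ES over control of 1.43 (0.393 to 5.74) and 0.434 (0.154 to 1.11). Its values lay on the other side of equality from those of Cdkn1a at both days, with intervals that overlapped those of Cdkn1a. Btg1, a relative of Btg2, was at 1.82 (0.280 to 17.3) and 1.84 (0.417 to 10.8).

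The rest of the BCL2 family (10 genes) had 3 higher, 2 lower and 3 neither in ES at 11 DIV (median 0.00) and 2, 0 and 4 at 19 DIV (median 0.38). Bcl2l1, which encodes the survival protein BCL-XL, had 1643 and 892 reads in control and ES at 11 DIV and 212 and 1418 at 19 DIV. Mcl1, another survival member, had 1046 and 243, then 1645 and 1406. Bcl2l1 was thus lowest in control at 19 DIV, as Bax and Bbc3 were. Its ratio of ES over control at 19 DIV, 5.77, had a spread-adjusted interval of 0.654 to 378. In control cultures it was at 0.108 times its 11 DIV level at 19 DIV (0.00179 to 0.893), which did not pass the spread-adjusted rule.

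Genes of proliferation had 3 higher, 1 lower and 8 neither of 12 in ES at 11 DIV (median 0.24) and 1, 1 and 10 at 19 DIV (median 0.37). Ccnd1, cyclin D1, was at 0.722 (0.469 to 1.10) and 1.30 (0.855 to 2.0) times control. Ccnd2, cyclin D2, had 2954 and 863 reads in control and ES at 11 DIV and 4622 and 7196 at 19 DIV. It was 6.19-fold higher at 19 than at 11 DIV in ES cultures (2.0 to 28.7), past the spread-adjusted rule. In ES at 11 DIV, where Cdkn1a was lower, it was at 0.286 times control (0.0704 to 0.896), which did not pass that rule.

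Lists of stress genes stood beside Cdkn1a to differing degrees. All 10 oxidative stress genes were lower by the size rule in ES at 11 DIV (median -2.08) and all 10 were lower in control at 19 DIV than at 11 DIV (median -3.20), and 4 and 6 of them passed the spread-adjusted rule. Both comparisons share the single control library at 11 DIV, where Cdkn1a was also highest, so they are not independent. Mt2, Mt1 and Prdx1 were at 0.124 (0.0837 to 0.179), 0.129 (0.0853 to 0.188) and 0.333 (0.244 to 0.448) times control in ES at 11 DIV, and Hmox1 at 0.173 (0.0395 to 0.537). In control cultures Srxn1 was at 0.225 (0.0819 to 0.533) times its 11 DIV level at 19 DIV, and Gclm had 4 reads against 2031. At 19 DIV none of the 9 tested differed between ES and control by the size rule, as with Cdkn1a. The 10 immediate early genes, which include other genes induced by stress, had 1 higher, 3 lower and 5 neither at 11 DIV (median -0.19) and 2, 0 and 7 at 19 DIV (median 0.06), with Jun at 2.0 (0.557 to 8.63) and 0.703 (0.211 to 2.25) and Jund at 1.45 (0.441 to 5.17) and 1.15 (0.417 to 3.28) times control.

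Cell type markers shifted between the same libraries. In ES at 19 DIV, where 7 members passed the size rule upward, 7 of 8 neuron markers were lower than control by that rule (median log2 difference -1.63), and Prph, Stmn2 and Tubb3 passed the spread-adjusted rule. In ES at 11 DIV the neuron list had 3 higher and 0 lower (median 0.66), with none past that rule. Col1a2, a collagen of fibroblasts, was 2.34-fold higher (1.70 to 3.28) in control at 19 DIV than at 11 DIV, a comparison in which Cdkn1a was lower. Pecam1, Tek, Flt1 and Cldn5 of endothelium and Aif1 of macrophages had no read in any library. The part of cell composition in the values of the 10 genes was not tested.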

How the data were processed

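The authors deposited 1 table a library with the raw count of each gene symbol, unscaled and over the same 23282 rows. Bowtie2, bedtools and mm10 are named in the submitters' processing notes, and per the labels' protocols a QuantSeq kit and 500 ng of total RNA made each library. For versions, duplicates and strand the entry is: not given in the sources used here. Reads of a gene and of one on the other strand may therefore be mixed. Samples were grouped by title. Counts were scaled with TMM (edgeR 4.0.16, R 4.3.3). Ratios have exact Clopper-Pearson intervals on the 2 counts, which cover counting error only. The spread factor is the median squared difference over its counting variance, divided by the median of a chi-square with 1 degree of freedom. Log2 differences used a prior count of 2. DESeq2 1.42.0, limma 3.58.1, other scalings and thresholds were alternatives. Methods were also run on simulated data, with outcomes that are not reported here. Other steps ran in Python 3.11.15 (scipy 1.17.1, numpy 2.4.6, pandas 2.3.3), with figures by matplotlib 3.10.9. Gene positions are from GENCODE M21 (GRCm38, the assembly of mm10). The members and lists were chosen with earlier results of these data known. Named beside the 10 members were the 2 most abundant genes of each of 9 lists, any list gene past the spread-adjusted rule, and the 5 genes nearest to Cdkn1a; marker genes were named as examples after their values were seen. The values of 1 marker gene are not reported here.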

Additional observations from a re-analysis of the deposited data

Results flagged for a closer look

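With 1 library per group, no group was large enough to look for a library far from the others. For 6 of the 10 genes the ES library lay below control at 11 DIV and above it at 19 DIV, as it did for 21.6% of the 11665 genes averaging 10 reads or more, and the difference between the days was not tested, since no residual degree of freedom is left. The log2 ratio of ES over control at 19 DIV minus that at 11 DIV was 1.25 for Cdkn1a, 1.24 for Ccng1, 2.09 for Bax, 1.71 for Zmat3 and 6.28 for Bbc3. For Btg2 it was 13.77 with counts of 0 put at 3 reads. With total counts, Ccng1 was at 1.02 times control at 11 DIV and so above it at both days, which leaves 5 genes. Trp53, Mdm2, Gadd45a and Phlda3 kept their side of equality at both days.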

How the results depend on the processing

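No paired analysis of replicates was possible because each group had 1 library. The additive model already holds day as a term. Leaving out a library in turn leaves the additive model no residual degree of freedom, so it was not run. Of 36 member ratios with reads in both libraries, none changed side among those past the size rule under DESeq2 size factors, upper-quartile scaling or total counts; 8 left their counting interval, all under total counts, which moved a ratio by at most 1.10 times. Ccng1 at 11 DIV, not past the rule, went from 0.931 to 1.02 under total counts. Bax at 11 DIV no longer passed with DESeq2 size factors (0.507) or total counts (0.543), which left 4 members, and Zmat3 in ES at 19 over 11 DIV no longer passed with upper-quartile scaling (1.97), which left 2. With a minimum of 500 reads, 2 members passed the size rule in place of 5 for ES over control at 11 DIV. For control at 19 over 11 DIV it was 3 in place of 5. With a fold minimum of 1.5 there were 8 in both. The shares of all genes were not counted at these changed settings, so these member counts have no background beside them. For ES over control at 11 DIV, the 1 member past the spread-adjusted rule became 0 with total counts and with the spread factor from genes above 3000 reads, and that factor also gave 0 for control at 19 over 11 DIV; a larger divisor widens every interval. DESeq2 called 503 genes for stimulation (210 higher, 293 lower) and 847 genes and 1 member for day, where edgeR called 0; the cause was not tested. After division by the spread factor, the lowest counts of Btg2, Bbc3 and Trp53 weigh as less than 1 read. The part of depth in this was not tested.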
